A study of Mus musculus with 15 samples.

Results

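The ileal genes for bile acid uptake, carriage, export and sensing were followed through RNA-seq of whole mouse ileum in which the gene for the transcription factor Rfx6 was targeted in the adult gut. The set was chosen by name as 7 genes, Slc10a2, Fabp6, Slc51a, Slc51b, Nr1h4, Fgf15 and Nr0b2, and all 7 were found among the 37620 gene identifiers of each count table. Mutant mice were Rfx6f/f; Vilin-CreERT2, in which a Cre recombinase that needs tamoxifen is driven by a villin promoter, which is active in gut epithelial cells of all kinds. Controls were Rfx6f/f or Rfx6f/+ and carried no Vilin-CreERT2 by their labels, so the Cre transgene and the targeted Rfx6 allele cannot be told apart. Adult mice received tamoxifen (10 mg by gavage, on alternate days over 5 days), and their ileum was collected either 8 days or 3 months later. The 15 libraries were 3 controls (all Rfx6f/f) and 4 mutants at 8 days, and 4 controls (2 Rfx6f/f, replicates 1 and 4, and 2 Rfx6f/+, replicates 2 and 3) and 4 mutants at 3 months. The labels do not say that each library came from its own mouse, so p-values measure the spread between libraries. No exact age or sex was used here.

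Bile acids are made in liver, released into the gut and taken back in the last part of the small intestine. There the sodium-dependent carrier encoded by Slc10a2 brings them into the enterocyte, the cytosolic binding protein encoded by Fabp6 holds them inside the cell, and a basolateral exporter built from the Slc51a and Slc51b subunits passes them to the portal blood. Bile acids also bind FXR, the nuclear receptor encoded by Nr1h4, which raises transcription of Fabp6, of both exporter subunits and of Fgf15, a hormone that travels to the liver and holds back bile acid synthesis. Nr0b2 encodes SHP, a repressor best known as an FXR target in liver.

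Of these genes, 2 passed the test, both at 3 months and both lower in the mutants, so the bases before their start sites are shown with those of the partner subunit Slc51a. Promoter windows from RefSeq (GRCm38.p6), 250 bases before to 50 bases after a start site, were matched by symbol for 6 of the 7 genes; Fgf15 had no match. The 250 bases before the start are printed 5′ to 3′ in the direction of transcription, all from the minus strand: Fabp6 at chr11:43601563-43601812, Slc51b at chr9:65422774-65423023 and Slc51a at chr16:32487880-32488129. Capitals mark the motif matches described after the sequences.
Fabp6: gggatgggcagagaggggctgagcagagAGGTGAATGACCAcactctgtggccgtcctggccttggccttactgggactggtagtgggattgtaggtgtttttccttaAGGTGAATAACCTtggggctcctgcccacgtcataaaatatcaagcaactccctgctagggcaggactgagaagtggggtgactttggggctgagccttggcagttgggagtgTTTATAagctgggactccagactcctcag
Slc51b: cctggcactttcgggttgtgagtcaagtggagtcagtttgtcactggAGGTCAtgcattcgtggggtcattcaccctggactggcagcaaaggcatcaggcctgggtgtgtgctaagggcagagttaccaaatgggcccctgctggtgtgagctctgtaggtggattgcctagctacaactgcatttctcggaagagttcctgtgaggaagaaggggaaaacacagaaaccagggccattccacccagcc
Slc51a: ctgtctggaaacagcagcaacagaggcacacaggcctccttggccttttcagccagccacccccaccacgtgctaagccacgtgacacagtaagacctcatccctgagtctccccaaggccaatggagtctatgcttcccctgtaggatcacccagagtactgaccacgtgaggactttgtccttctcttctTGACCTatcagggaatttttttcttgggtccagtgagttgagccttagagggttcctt
FXR is known to bind with RXR at inverted copies of the half-site AGGTCA set 1 base apart, AGGTCANTGACCT. On either strand and with up to 2 mismatches, that repeat was found in the window of Fabp6 and in no other of the 6 windows, against 374 of all 32851 windows of the same length. Fabp6 held it in 2 places, AGGTGAATGACCA starting 222 bases before the start site and AGGTGAATAACCT starting 142 bases before it. The exact repeat was in 0.00913% of all windows and in none of the 6. The plain half-site AGGTCA, which is part of that repeat, was in 3 of the 6 windows against 16.3% of all: forward at 203 bases before the Slc51b start, reversed as TGACCT at 58 bases before the Slc51a start, and also before Nr1h4. A TATAAA box lay 29 bases before the Fabp6 start, reversed as TTTATA, and also before Nr0b2, against 13.6% of windows. The half-site GTTAAT of HNF1 factors was before Slc10a2 and Nr1h4 (7.1% of windows), and the half-site GTTGCC of RFX factors was in the window of Nr1h4 alone (12.5% of windows). These are letter matches only, and none was tested for binding.

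Depth, labels and tissue were checked before the members were compared. Libraries held 30452485 to 54468586 counts at 8 days and 26078462 to 36270306 at 3 months, so the 5 strongly expressed members had at least 2792 counts in every library. At 8 days Rfx6 itself was counted 50, 50 and 84 times in control libraries, with 80, 105, 63 and 44 in those labelled mutant. At 3 months the control libraries had 51, 52, 38 and 43 and the others 106, 72, 89 and 65, a log2 fold change of 0.72 (adjusted p = 0.0347, edgeR). Whole-gene counts of Rfx6 were thus not lower in the libraries labelled mutant, and the exons lost from the allele are not given in the sources used here, so these counts do not check the deletion. The incretin gene Gip was lower in those libraries at both times, with 7.45 ± 2.80 CPM (SD, n = 3) against 0.0235 ± 0.0171 (n = 4) at 8 days and 2.86 ± 0.913 against 0.0318 ± 0.00376 at 3 months. Gip belongs to a list of 10 enteroendocrine genes that did not all move the same way. By edgeR, 4 of them were called lower and 0 higher at 8 days. At 3 months 6 were called lower and 3 higher (Chga, Chgb and Tph1). "Mutant" below means the libraries labelled so. Albumin, a liver marker, had 0 to 7 counts in the 15 libraries. Car1, a gene of the large intestine, stood apart in 2 libraries of 8 days, with 8757 counts in control replicate 3 and 13347 in mutant replicate 4 against 0 to 37 elsewhere. Lct and Gata4, genes of the upper small intestine, had 177 and 32 counts in mutant replicate 2 and 226 and 39 in mutant replicate 4 at 8 days, against at least 8768 and 376 in the other libraries of that time. The 8-day comparison and the test of the difference between times were therefore also run without the 2 libraries with high Car1.

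The members spanned a wide range of levels. CPM, the count scaled to library size with TMM within each time point, was divided by exon length in kilobases to set genes side by side. In the 8-day controls the mean level per kilobase was 3586 ± 781.7 (SD, n = 3) for Fabp6, 255.7 ± 11.3 for Slc51b, 200.9 ± 8.89 for Slc51a, 95.1 ± 5.37 for Nr1h4, 92.5 ± 3.45 for Slc10a2, 2.69 ± 0.621 for Fgf15 and 0.68 ± 0.4 for Nr0b2. Nr1h4 and Slc10a2 lay within each other's spread, while the other neighbours in that order lay further apart than 1 SD of each. The order Fabp6, Slc51b, Slc51a, Slc10a2, Nr1h4, Fgf15, Nr0b2 held in 10 of 15 libraries. Nr1h4 stood above Slc10a2 in 4 others, all of 8 days, and Slc51a stood above Slc51b in mutant replicate 2 of 8 days. By mean level per kilobase Fabp6 ranked 10 among 32897 genes in both groups of 8 days, 6 in the 3-month controls and 18 in the 3-month mutants. Length-scaled values rest on exon lengths of GENCODE M21 (GRCm38), a later build than that of the counts.

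**Figure D1:**
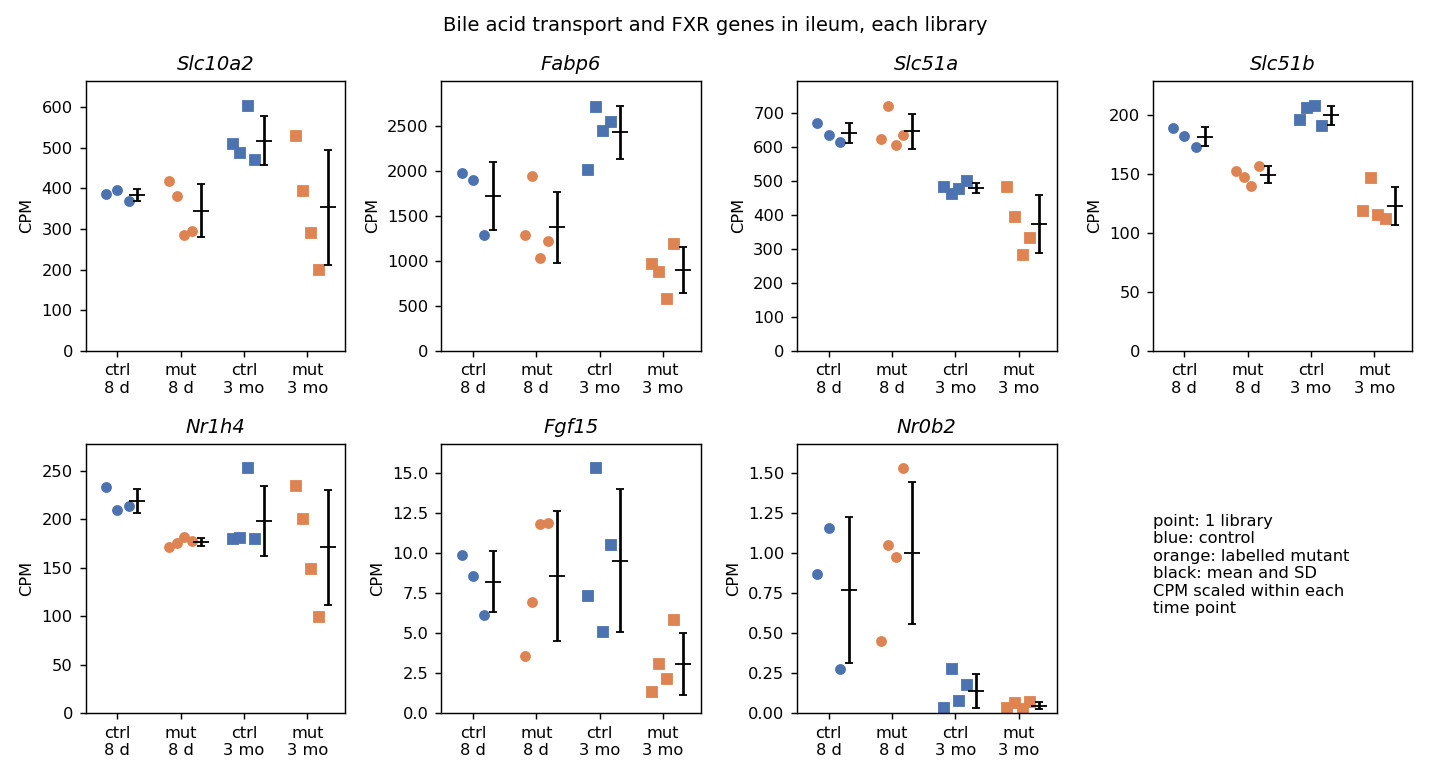
CPM of each of the 7 genes (vertical axes, each starting at 0) in each of the 15 libraries, grouped by genotype and time, with the mean and SD in black. Fabp6 and Slc51b show no overlap between controls (blue) and mutants (orange) at 3 months, and Nr0b2 is close to 0 in both 3-month groups.

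At 3 months all 6 members that could be tested had a lower estimate in the mutants, and 2 of them, Fabp6 and Slc51b, passed the test. The test was edgeR's quasi-likelihood test with Benjamini-Hochberg adjustment over all 17085 genes, called at an adjusted p under 0.05, which called 9.28% of all genes tested and 4.32% as lower. The median log2 fold change of the 6 was -0.62, against 0.008 over all genes. In bulk tissue, fewer cells of a type and less RNA per cell cannot be told apart. Nr0b2 was not tested at 3 months because its counts, 1 to 9 per control library and 1 to 2 per mutant library, were too low for the filter on low counts.

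Fabp6 had the larger of the 2 called differences. Its level was 2006, 2708, 2440 and 2536 CPM in the 3-month controls and 960.4, 870.8, 572.1 and 1179 CPM in the mutants. Every mutant library lay below every control library; 9.53% of all genes tested at 3 months were lower without overlap. The mean fell from 2423 ± 299.0 (SD, n = 4) to 895.6 ± 251.6 CPM (n = 4), 2.7-fold lower, with a log2 fold change of -1.44 (SE 0.20, 95% interval -1.90 to -0.97, adjusted p = 0.00873, edgeR). The 2 Rfx6f/f controls had 2006 and 2536 CPM and the 2 Rfx6f/+ controls 2708 and 2440 CPM, so both genotypes stood above all mutants. Against the 2 Rfx6f/f controls alone the log2 fold change was -1.34 with an adjusted p of 0.119 (edgeR), which ended the call.

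Slc51b, the smaller exporter subunit, which is needed for the pair to reach the membrane, was also lower. The 3-month controls stood at 195.4, 205.4, 207.5 and 190.1 CPM and the mutants at 118.1, 146.4, 114.9 and 111.6 CPM. The groups did not overlap. The mean fell from 199.6 ± 8.24 to 122.7 ± 16.0 CPM (SD, n = 4 each), 1.63-fold lower, with a log2 fold change of -0.70 (SE 0.09, 95% interval -0.90 to -0.50, adjusted p = 0.00613, edgeR). Against the 2 Rfx6f/f controls alone it was -0.65, with an adjusted p of 0.111 (edgeR), which ended that call too. By GENCODE M21, 91 of the 709 exonic bases of Slc51b are shared with Rasl12 on the opposite strand, and the strand setting of the counting is not given in the sources used here. Rasl12 itself stood at 2.22 ± 0.152 CPM in the controls and 1.93 ± 0.0807 in the mutants.

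Slc51a, the larger subunit, did not pass the test. It was counted at 482.7, 462.4, 478.5 and 499.6 CPM in the controls and at 482.0, 394.4, 282.4 and 332.8 CPM in the mutants. Mutant replicate 1 sat among the controls, while the other 3 lay below all of them. The log2 fold change was -0.37 (SE 0.15, 95% interval -0.70 to -0.04, adjusted p = 0.134, edgeR), and 1 of the 8 fits that left out 1 library passed, without mutant replicate 1 (-0.51, adjusted p = 0.0411). Without mutant replicate 3 the estimate was -0.25 (adjusted p = 0.215). Here 567 of 3198 exonic bases are shared with Pcyt1a on the opposite strand, a gene at 106.8 ± 5.01 CPM in the controls and 172.3 ± 25.9 in the mutants. Whether reads of the shared stretch were counted, and for which gene, is not given in the sources used here.

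Slc10a2, the uptake carrier, spread widely among the mutants. The controls had 508.1, 486.6, 603.8 and 469.3 CPM and the mutants 529.3, 393.8, 290.0 and 199.8 CPM. The lowest mutant was well under the lowest control, while the highest mutant lay among the controls. The log2 fold change was -0.55 (SE 0.26, 95% interval -1.13 to 0.03, adjusted p = 0.188, edgeR), and it was -0.81 without mutant replicate 1 and -0.35 without mutant replicate 4, neither past the threshold. Nr1h4, the receptor, spread in the same way, with 179.8, 181.1, 252.5 and 179.2 CPM in the controls and 234.7, 200.6, 148.9 and 99.4 CPM in the mutants. Its groups overlapped, and its log2 fold change was -0.21 (SE 0.24, 95% interval -0.76 to 0.34, adjusted p = 0.589, edgeR). That estimate was -0.02 without mutant replicate 4, -0.08 without control replicate 3, -0.40 without mutant replicate 1 and -0.07 against the 2 Rfx6f/f controls alone.

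Fgf15, the hormone, was far less counted, with 211, 499, 130 and 297 counts (7.34, 15.3, 5.05 and 10.5 CPM) in the 3-month controls. The mutants had 42, 94, 81 and 163 counts (1.35, 3.10, 2.16 and 5.80 CPM). Mutant replicates 1, 2 and 3 lay below all controls, and replicate 4 lay above the lowest control. The log2 fold change was -1.63 (SE 0.47, 95% interval -2.68 to -0.58), with an adjusted p of 0.0584 in edgeR, which is not past the threshold. Other tests of the same counts fell on the other side, at 0.00269 with DESeq2 and 0.0485 with limma-voom, and the edgeR fit of all 15 libraries gave 0.0329. Of the 8 edgeR fits that left out 1 library, 1 passed, without mutant replicate 4 (-2.11, adjusted p = 0.0298); the other 7 did not, up to an adjusted p of 0.143 without control replicate 2 (-1.30). Against the 2 Rfx6f/f controls alone it was -1.53, with an adjusted p of 0.220 (edgeR). By GENCODE M21, 761 of its 3058 exonic bases are shared with an antisense gene.

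At 8 days none of the 7 members passed the test, which called 0.0915% of 17493 genes (16 genes). Slc51b and Nr1h4 nevertheless had groups that did not overlap, as did 3.8% of all genes tested in the lower direction. Slc51b was at 189.0, 181.8 and 173.0 CPM in the controls and 152.3, 147.4, 139.8 and 156.6 in the mutants, a log2 fold change of -0.28 (SE 0.07, 95% interval -0.44 to -0.13, adjusted p = 0.378, edgeR). Nr1h4 was at 233.0, 209.9 and 213.9 CPM in the controls and 171.8, 175.7, 181.8 and 177.8 in the mutants, a log2 fold change of -0.31 (SE 0.06, 95% interval -0.45 to -0.16, adjusted p = 0.278, edgeR). DESeq2 called both at this time, with adjusted p-values of 0.0239 for Slc51b and 0.00321 for Nr1h4, among 178 genes in all.

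The other 5 members overlapped between the groups at 8 days. Fabp6 stood at 1972, 1893 and 1288 CPM in the controls and 1282, 1941, 1029 and 1221 CPM in the mutants, with control replicate 3 the low one and mutant replicate 2 the high one. Its log2 fold change was -0.33 (SE 0.22, 95% interval -0.84 to 0.18, adjusted p = 0.773, edgeR), with -0.54 without mutant replicate 2, -0.50 without control replicate 3 and -0.22 without control replicate 1 or mutant replicate 3. Slc10a2 had 386.3, 397.0 and 368.6 CPM against 418.9, 382.1, 284.4 and 295.1 CPM (log2 fold change -0.15, 95% interval -0.46 to 0.16; -0.26 without mutant replicate 1 and -0.07 without mutant replicate 3). Slc51a had 673.2, 637.6 and 617.1 CPM against 624.4, 723.4, 606.9 and 636.0 CPM (log2 fold change 0.01, 95% interval -0.17 to 0.19). That interval is narrow enough that a change of the size seen for Slc51b at 3 months lies outside it. Fgf15 had 9.91, 8.56 and 6.16 CPM against 3.6, 6.95, 11.8 and 11.9 CPM, with mutants on both sides of the controls (log2 fold change 0.06, 95% interval -0.80 to 0.92). Nr0b2 had 27, 43 and 15 counts against 20, 54, 39 and 47 (log2 fold change 0.40, 95% interval -0.77 to 1.57). Without the 2 libraries with high Car1, the estimates for Slc51a, Fgf15 and Nr0b2 changed sign, and none of the 7 members passed.

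**Figure D2:**
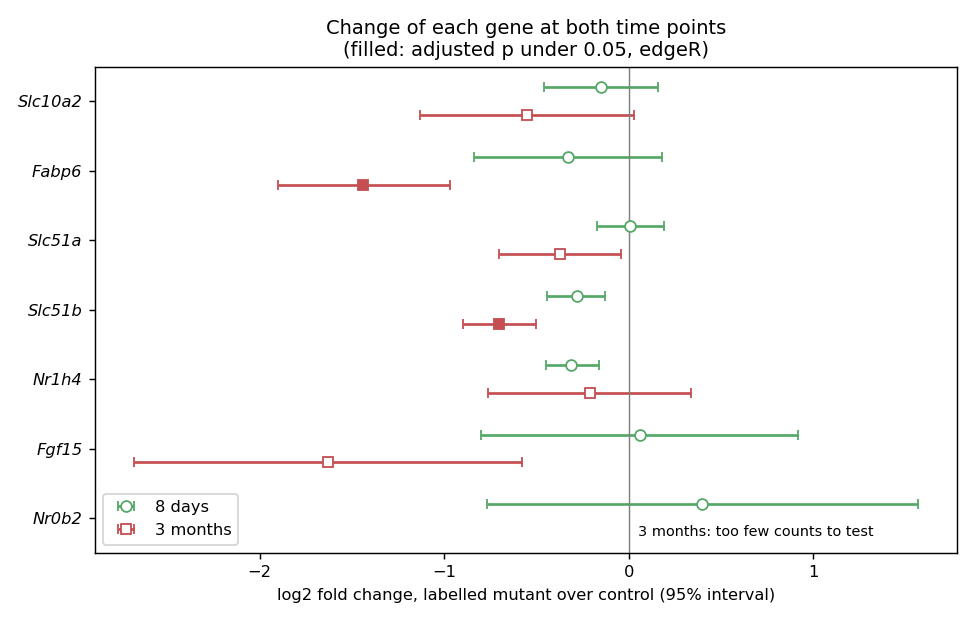
Log2 fold change of each gene, mutant over control (horizontal axis), with its 95% interval, at 8 days (circles) and 3 months (squares); filled symbols passed the edgeR test. The filled ones are Fabp6 at -1.44 and Slc51b at -0.70, both at 3 months.

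The change of the genotype effect between the times was tested on its own, as an interaction over all 15 libraries, since a call at one time and not the other shows no difference. No member passed this test, which called 0.785% of 17959 genes. The estimates nearest the threshold were those of Slc51b, -0.44 (SE 0.11, 95% interval -0.68 to -0.20, adjusted p = 0.0674, edgeR), and Fabp6, -1.13 (SE 0.33, 95% interval -1.84 to -0.41, adjusted p = 0.0982, edgeR). DESeq2 called both, at adjusted p-values of 0.0199 and 0.0155. Fgf15 had an estimate of -1.71 (SE 0.66, adjusted p = 0.203, edgeR), and Nr1h4 one of 0.08 (SE 0.29, adjusted p = 0.931, edgeR). The others were -1.97 for Nr0b2 (SE 0.99, adjusted p = 0.340, edgeR), -0.41 for Slc10a2 (SE 0.33, adjusted p = 0.576, edgeR) and -0.40 for Slc51a (SE 0.18, adjusted p = 0.299, edgeR). Of the 7 estimates 6 were negative, where the median over all genes was -0.01. All 7 come from the same libraries, and their shared sign was not tested. Time and cohort cannot be told apart in these values.

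The control group of 3 months held both genotypes, so Rfx6f/+ was set against Rfx6f/f. None of the 6 members tested passed, and the test called 0% of 17780 genes (0 by edgeR, 1220 at an unadjusted p under 0.05, and 48 by DESeq2, none of them a member). The log2 difference was 0.18 (95% interval -0.49 to 0.85) for Fabp6, 0.10 (-0.20 to 0.39) for Slc51b and 0.20 (-1.32 to 1.72) for Fgf15. These values rest on 2 libraries of each genotype.

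Ratios within a library need no scaling between libraries, and 3 were tested at each time by exact two-sided permutation. The ratio of Slc51b to Slc51a counts was 0.281, 0.285 and 0.280 in the 8-day controls and 0.244, 0.204, 0.230 and 0.246 in the mutants. Every mutant lay below every control; the log2 difference was -0.29 and the exact permutation p was 0.0571, the smallest that 3 against 4 libraries allow. At 3 months the control ratios were 0.405, 0.444, 0.434 and 0.380 and the mutant ratios 0.245, 0.371, 0.407 and 0.335, which overlapped (log2 difference -0.31, exact permutation p = 0.0857, smallest possible 0.0286). Without mutant replicate 1 the 3-month difference was -0.17 (exact permutation p = 0.171). The log2 ratio of Slc10a2 to Fabp6 differed by 0.17 at 8 days (exact permutation p = 0.514) and by 0.84 at 3 months (exact permutation p = 0.143). That of Fgf15 to Nr0b2 differed by -0.54 (exact permutation p = 0.4) and -0.61 (exact permutation p = 0.286). With 5 in place of 0.5 added to each count, the 3-month value for Fgf15 to Nr0b2, which rests on 1 to 9 counts of Nr0b2 per library, was -1.08 (exact permutation p = 0.0571), and without control replicate 1 it was -0.26. At 8 days it was -0.12 without control replicate 3 and -0.91 without control replicate 2. None of the 6 tests passed the threshold.

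The members varied together in part when each group's mean was removed. Over the 15 libraries, deviations in log2 CPM of Slc10a2 and Nr1h4 had a Pearson r of 0.86 and a Spearman rho of 0.56. Without mutant replicates 1 and 4 of 3 months, the 2 farthest libraries, r was 0.53; it was 0.97 over the 8 libraries of 3 months and -0.41 over the 7 of 8 days. Deviations of Slc10a2 and Fgf15 went opposite ways, with r of -0.77 (rho -0.71), -0.62 without the same 2 libraries, -0.85 at 8 days and -0.78 at 3 months. Mutant replicate 4 of 3 months, for example, was 0.73 below its group mean in Slc10a2 and 1.09 above it in Fgf15. For Fabp6 and Slc10a2, r was 0.08 (rho 0.21), and it was 0.49 without the same 2 libraries, 0.57 at 8 days and -0.12 at 3 months. For Fabp6 and Nr1h4, r was -0.11 (rho 0.03), and -0.24 without mutant replicate 3 of 3 months and mutant replicate 2 of 8 days. Fabp6 and Slc51a had an r of 0.53 (rho 0.49), which was 0.18 without those 2 libraries, 0.91 at 8 days and 0.46 at 3 months. Slc51a had an r of 0.69 with Slc10a2 (rho 0.66) and of 0.61 with Nr1h4 (rho 0.49). The r with Slc10a2 was 0.48 without mutant replicates 1 and 4 of 3 months, the 2 libraries farthest in Slc10a2. The r with Nr1h4 was 0.51 without mutant replicates 1 and 3 of 3 months, the 2 farthest in Slc51a. The exporter subunits had an r of 0.29 (rho 0.48), which was 0.50 without mutant replicates 1 and 3 of 3 months. These are descriptions without a test, over libraries that share depth and tissue makeup.

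**Figure D3:**
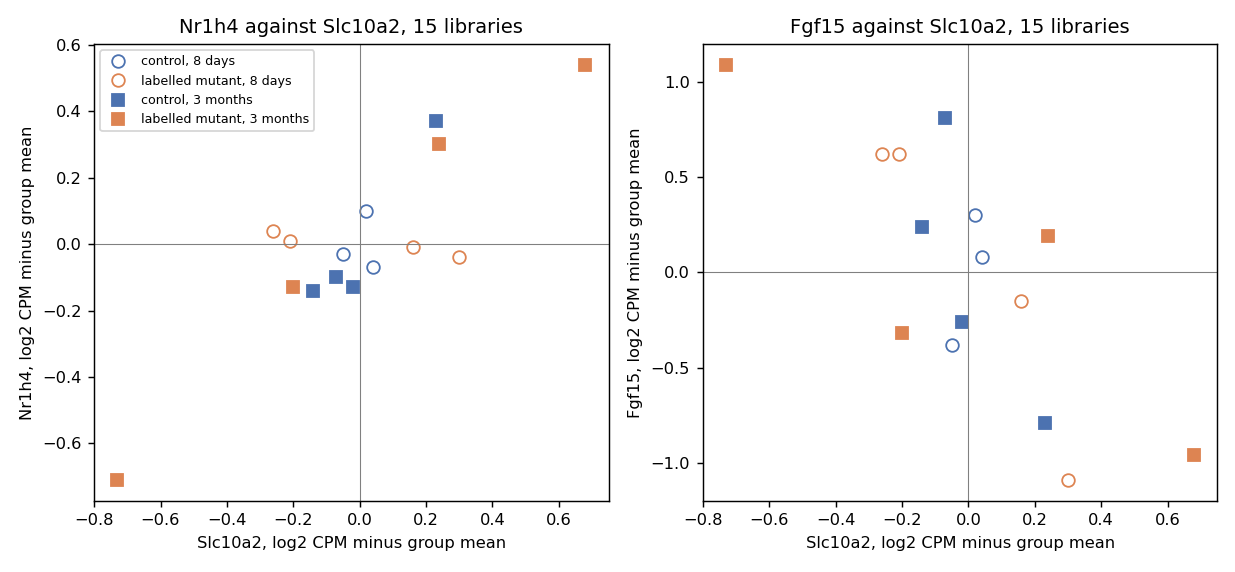
Deviation of each of 15 libraries from its group mean in log2 CPM, Nr1h4 (left) and Fgf15 (right) against Slc10a2. At 3 months Nr1h4 rises with Slc10a2 (r = 0.97), with 2 mutant libraries as the outermost points; at both times Fgf15 falls as Slc10a2 rises.

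Among 14716 named protein-coding genes, those most like each member in the same deviations were found by Pearson r over 15 libraries. For Slc10a2 they were Elovl7 (0.921), Slc35g1 (0.919) and Cdc42se2 (0.906), and for Nr1h4 Hif3a (0.934), Spop (0.922) and Slc26a2 (0.917). Slc51a was most like Lcor (0.929), Malrd1 (0.926) and Xpnpep2 (0.916). Slc51b was most like Smad1 (0.919), Vmp1 (0.864) and Eif1a (0.859). Fgf15 was most like Lsp1 (0.922), Pde4b (0.891) and Ankrd33b (0.887). Fabp6 had the lowest values, among them Rnaseh2b (0.832) and Rnpc3 (0.785). Of these 18 genes, 5 to 13 stayed in the list when 1 library was left out.

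Most other genes of the pathway did not pass the test at 3 months (51 of the 61 tested). Of 74 other genes of bile acid transport, sensing and synthesis found in the tables, 61 could be tested at 3 months; 6 were higher and 4 were lower, where 9.28% of all genes were called, and the median log2 fold change was 0.10, against 0.008 for all genes. At 8 days none of 63 passed and the median was 0.03. Among 11 other transporters of bile acids and conjugates, 1 was higher and 2 were lower. Abcc2, an apical exporter of conjugates, was at 30 ± 4.55 CPM in the controls and rose to 88.8 ± 29.0 CPM, with an adjusted p of 0.00878 in edgeR (log2 fold change 1.57, SE 0.23). Its basolateral relative Abcc3 went from 216.4 ± 52.8 down to 118.2 ± 9.70 CPM, with an adjusted p of 0.0212 in edgeR (log2 fold change -0.87, SE 0.17). The apical efflux pump Abcg2 went from 561.3 ± 28.3 down to 386.8 ± 83.9 CPM, with an adjusted p of 0.0497 in edgeR (log2 fold change -0.54, SE 0.14). Abcb1a, another apical pump, was at 363.5 ± 79.2 and 262.7 ± 89.2 CPM (adjusted p = 0.210, edgeR).

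Of 21 receptors and regulators, 3 were higher and none was lower. Among them, the coactivator Ncoa1 rose from 71.9 ± 2.33 to 90.1 ± 4.53 CPM (log2 fold change 0.33, adjusted p = 0.012, edgeR), and the coactivator Ppargc1a from 18.1 ± 2.67 to 38.6 ± 13.6 CPM (1.09, adjusted p = 0.0236, edgeR). Hnf4a, a master regulator of enterocyte genes, was at 935.8 ± 45.1 and 923.5 ± 57.9 CPM (log2 fold change -0.02, 95% interval -0.19 to 0.15), and the corepressor Ncor1 at 341.3 ± 18.8 and 383.4 ± 44.3 CPM.

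Of 18 other targets of FXR or the xenobiotic receptor PXR, 1 was higher and 2 were lower. Akr1b7, an aldose reductase family member, dropped 4.26-fold, from 64.0 ± 9.13 to 15 ± 10.2 CPM (a log2 change of -2.09 with SE 0.44, adjusted p = 0.0263, edgeR), and the sulfotransferase Sult1c2 from 7.64 ± 1.24 to 4.59 ± 1.0 CPM (-0.73, adjusted p = 0.0408, edgeR). Apoc2, an apolipoprotein that activates lipoprotein lipase, rose from 21.7 ± 6.82 to 70.9 ± 28.2 CPM (1.71, adjusted p = 0.0173, edgeR). The genes of the list with the highest mean over all 15 libraries, Cyp3a13 and Ces2a, had adjusted p-values of 0.484 and 0.334 (edgeR). Nos2, the inducible nitric oxide synthase and the most counted of the list in the 3-month controls, was at 426.8 ± 66.1 CPM there and at 111.3 ± 119.8 CPM in the mutants, and did not pass (log2 fold change -1.94, SE 0.69, adjusted p = 0.104, edgeR). Of 9 genes of bile acid synthesis, 1 passed: Hsd17b4, a peroxisomal enzyme shared with fatty acid oxidation, rose from 105.0 ± 18.9 to 187.4 ± 40.4 CPM (0.84, adjusted p = 0.0219, edgeR). Scp2, the most counted of that list, was at 333.8 ± 35.6 and 444.0 ± 78.7 CPM (adjusted p = 0.0762, edgeR). Cyp7a1, the rate-limiting enzyme of the liver pathway, had no counts in 3 of the 4 groups. The FGF15 receptor Fgfr4 and its partner Klb, which act in liver, were at 4.47 ± 0.628 and 3.26 ± 0.533 CPM in the 3-month controls, and neither passed.

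**Figure D4:**
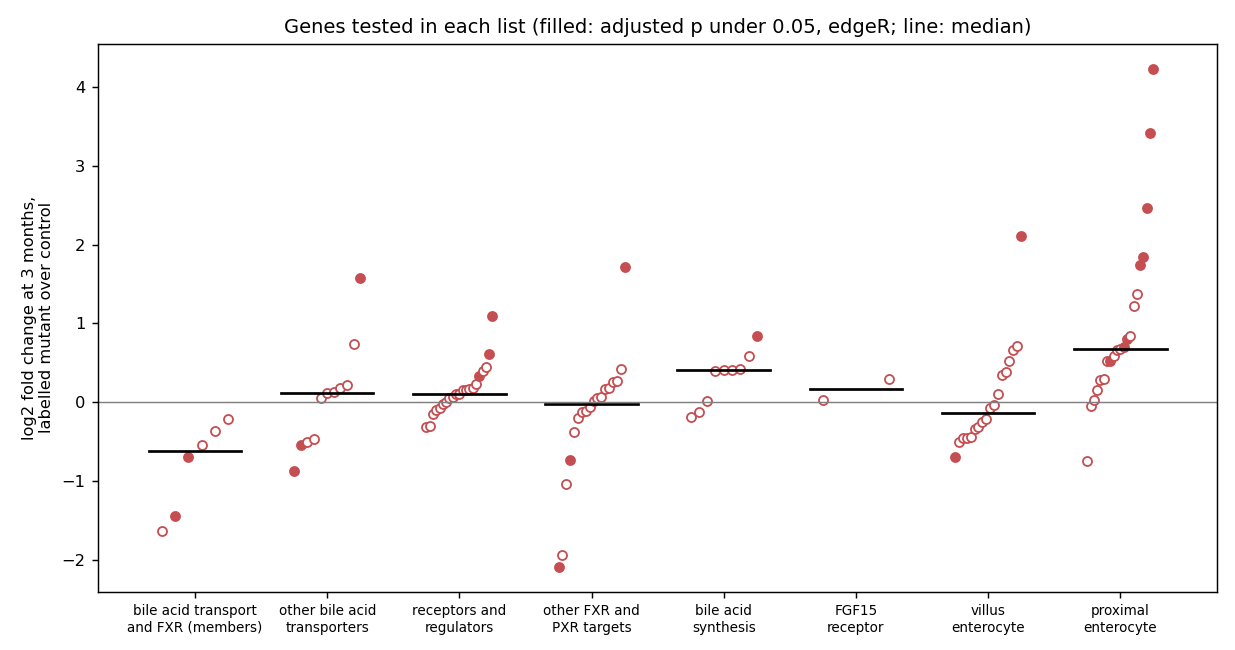
Log2 fold change at 3 months, mutant over control (vertical axis), of each gene tested in 6 lists of the pathway and 2 lists of enterocyte markers (n = 6 members in the first column), with the list median as a line; filled points passed the edgeR test. All 6 members lie below 0, with a median of -0.62, while the proximal enterocyte list has a median of 0.68 and 8 filled points above 0. Members and lists were chosen with earlier results of these data known.

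Marker genes of position along the gut and of cell type were read beside the fall of Fabp6 and Slc51b at 3 months. These lists were chosen with earlier results of these data known, so their counts are descriptions only. Of 21 genes of the proximal small intestine, 8 were higher and none was lower, where 9.28% of all genes were called. Their median log2 fold change was 0.68. Their summed level was 6764 to 9434 CPM in the controls and 18819 to 25961 CPM in the mutants, without overlap, and none was at 0. The largest changes were in Slc2a2 (4.23, adjusted p = 0.000555, edgeR), Apoa4 (3.42, adjusted p = 0.000717) and Sis (2.47, adjusted p = 0.000567). At 8 days the same sum was 9386 to 14242 CPM against 14234 to 22668 CPM, and of the 21 only Sis passed. Sis made up most of that difference, at 2400 ± 343.5 CPM against 8002 ± 2491 CPM, while the median log2 fold change of the 21 at 8 days was 0.10 and 8 were negative. At 3 months Sis stood at 1827 ± 309.8 against 10138 ± 2255 CPM. Of 21 tested genes listed for distal ileum and proximal colon, 1 was higher (Enpp7, 2.84) and none was lower, with sums of 7037 to 8136 against 6020 to 9910 CPM at 3 months. Where along the gut Enpp7 is expressed was not tested here, so its rise is not read as that of a distal gene. Of 18 villus enterocyte genes, 1 was higher, 1 was lower and the median was -0.14, with sums of 14296 to 18346 against 11059 to 17592 CPM; Vil1, the gene whose promoter drives the Cre, had a log2 fold change of -0.07 (95% interval -0.37 to 0.23). Of 10 immune genes, 1 was higher and 2 were lower (Cd8a -1.35, adjusted p = 0.0426, and Jchain, adjusted p = 0.0182, edgeR), with sums of 2388 to 3295 against 1385 to 1939 CPM. Of 10 enteroendocrine genes, 6 were lower and 3 were higher (Chga, Chgb and Tph1), with sums of 213.9 to 335.9 against 323.9 to 415.0 CPM. Of 10 goblet and Paneth cell genes, Muc2 was higher (0.95) and none was lower, with sums of 21298 to 26004 against 26645 to 28612 CPM. Of 10 stroma and muscle genes, Pdgfra was higher (0.64) and none was lower, with sums of 2071 to 2321 against 2273 to 3799 CPM. Of 10 crypt and proliferation genes, Top2a was lower (-0.34) and none was higher, with sums of 1580 to 1713 against 1282 to 1603 CPM. None of the 4 tuft genes or of the 8 stress genes tested passed. The part of these differences in the results for Fabp6 and Slc51b was not tested. RNA was extracted by either of 2 methods per the labels' protocols, and which method served which library is not given, so method and group cannot be told apart.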

How the data were processed

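Whole ileum RNA was sequenced after ribosomal RNA removal, per the labels' protocols (the molecule field names polyA RNA). The deposited values are whole-number counts per Ensembl gene that the authors made from their reads, in 2 tables, 1 per time point. The submitters' processing notes name mm9, bcl2fastq 2.17.1.14, Bowtie 1.0.0, TopHat2 2.0.10, Bowtie2 2.1.0 and HTSeq 0.6.1, with no role or order; strand handling is not given in the sources used here. Symbols and exon lengths came from GENCODE M21 and matched 32897 of 37620 identifiers (87.4%); the rest held 0.675% of counts.

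Each time point was fitted alone with edgeR 4.0.16 (quasi-likelihood, TMM, filterByExpr, R 4.3.3), two-sided, on the counts as deposited, with p-values adjusted over all genes tested. DESeq2 1.42.0, limma 3.58.1 (voom), other filters and scalings and leaving out each library were alternatives, and the edgeR step was tested on simulated data. Ratios had 0.5 added to each count. No 2 replicates agreed within sampling noise (lowest chi-square per degree of freedom 12.1). Correlations used log2 CPM with a prior count of 2.

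The 7 members and all lists were chosen with earlier results of these data known. Named genes are the members, called genes and the 2 most counted of each pathway list, marker genes called with a log2 fold change of at least 1 or the most counted of a list, and the 3 genes most like each member. Car1, Lct, Gata4, albumin, Pcyt1a, Rasl12, Vil1, Cyp7a1, Gpbar1, Nos2, Pnlip, Jchain, Muc2, Pdgfra and Top2a were named after their values were seen. Prmt1 was not matched. Of the genes this rule names, 2 are not reported here.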

Additional observations from a re-analysis of the deposited data

Results flagged for a closer look

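Of the values checked, 3 stood apart from the rest of their group by Dixon's test among 30 groups checked, where chance alone gives about 1.5. Nr1h4 was at 252.5 CPM in control replicate 3 of 3 months, an Rfx6f/+ library, against 179.2 to 181.1 CPM in the other 3 controls. The log2 ratio of Slc10a2 to Fabp6 was -2.56 in mutant replicate 4 of 3 months, the library with the lowest Slc10a2 and the highest Fabp6 of the mutants, against -1.14 to -0.86 in the other mutants. The log2 ratio of Fgf15 to Nr0b2 was 7.14 in control replicate 1 of 3 months, where Nr0b2 had 1 count, against 5.71 to 5.76 in the other controls.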

How the results depend on the processing

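At 3 months Fabp6 and Slc51b passed in each of the 8 fits that left out 1 library (Fabp6 log2 fold change -1.6 to -1.27, adjusted p 0.00658 to 0.0341; Slc51b -0.8 to -0.66, 0.000603 to 0.0283) and in 7 of 8 other alternatives; with Rfx6f/f controls only (fewer libraries), 0 members passed and the calls over all genes went from 1586 to 36. DESeq2 gave 2989 calls, and leaving out 1 library 391 to 1521, with 2 to 3 members called. At 8 days, 16 calls became 178 with DESeq2 (2 members), 27 with no filter, 25 with all 15 libraries in 1 fit, 3 without the 2 libraries with high Car1 (chosen after seeing the data), and 8 to 200 when 1 library was left out (200 without mutant replicate 1), with 0 members. For the difference between times, 141 calls became 1013 with DESeq2 (2 members), 41 with limma-voom, 223 with no filter, 248 with at least 10 counts in every library, 5 with Rfx6f/f controls only, 10 without the libraries with high Car1, and 10 to 749 when 1 library was left out, with 0 to 1 members (Slc51b, without mutant replicate 2 of 3 months). The share of higher calls there was 48.2% and moved to 61% with limma-voom. Control genotypes gave 0 calls with edgeR and 48 with DESeq2. Signs turned for 3 of the 8-day estimates, none of them called: Fgf15 to -0.07 with limma-voom, and Slc51a to -0.01, Fgf15 to -0.31 and Nr0b2 to -0.3 without the libraries with high Car1; leaving out 1 library, they ranged from -0.05 to 0.05 for Slc51a, -0.14 to 0.32 for Fgf15 and -0.04 to 0.86 for Nr0b2. When 1 library was left out, the difference between times ranged from -0.12 to 0.26 for Nr1h4. It ranged from -0.68 to -0.23 for Slc10a2 and from -0.55 to -0.26 for Slc51a, and passed in none of these fits. Leaving out 1 library, the difference in log2 ratio of Slc10a2 to Fabp6 lay between 0.05 and 0.34 (8 days) or 0.66 and 1.23 (3 months). Of the 18 genes most like the members, 6 stayed by Spearman's rho and 5 to 13 when 1 library was left out. The cause of these changes was not tested. No paired analysis was possible because the labels tie no mutant library to a control. At 3 months Nr0b2 had 1 to 9 counts per library, too few to test.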

Other observations

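Nr0b2 was counted at 15 to 54 per library at 8 days and at 1 to 9 per library at 3 months, in tables scaled separately. Between the same times the control mean of Fabp6 was 1718 ± 374.4 CPM (SD, n = 3) and 2423 ± 299.0 CPM (n = 4), and that of Slc51a 642.6 ± 28.4 and 480.8 ± 15.3 CPM. Ages at collection are not given and no test was made across the tables. The bile acid receptor gene Gpbar1 was low in all groups, at 0.441 ± 0.0544 CPM in the 8-day controls and 0.272 ± 0.0686 CPM in the 3-month controls. Pnlip, a gene of the pancreas, had 8455 counts in control replicate 4 of 3 months and 0 to 2283 in the other 14 libraries; Fabp6 and Slc51b in that library stood at 2536 and 190.1 CPM, within or near the range of the other controls.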
